A study of Mus musculus with 2 samples.

Results

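Visceral-type endoderm here means endoderm cells chosen by the summed mRNA of 3 genes, some of it from Spink3, a secreted trypsin inhibitor. The others are Cubn and Amn, which together form the cubam receptor that takes up protein from the outside. A cell could pass without mRNA of Cubn or Amn. Cells were taken from an embryoid library and from a library of E4.5 mouse blastocysts by the same rule. A barcode had to hold at least 1000 UMIs (unique molecular identifiers, each standing for 1 captured mRNA), at least 500 genes and 1 to 25% mitochondrial UMIs. Endoderm cells then had at least 3 UMIs of Gata4, Sox17, Pdgfra and Gata6 together, fewer than 3 of the epiblast genes Nanog, Tdgf1, Sox2, Utf1 and Trh, fewer than 5 of Vim and fewer than 5 of the trophectoderm genes Dppa1 and Tspan8. Cells with at least 5 UMIs of Spink3, Cubn and Amn together and at least 1 of Spink3 were called visceral-type. The remaining endoderm cells are called other endoderm. This gave 1390 visceral-type cells of 6227 filtered barcodes, 1362 of 5208 in the embryoid library and 28 of 1019 in the blastocyst library. They made up 33.3% of embryoid endoderm cells (1362 of 4086, exact 95% binomial interval 31.9 to 34.8%) and 17.9% of blastocyst endoderm cells (28 of 156, 12.3 to 24.9%). The name visceral-type stands for the rule and not for an established cell type. In the blastocyst library it means Spink3-positive endoderm, and those 28 cells had no UMI of the visceral endoderm carriers Ttr, Rbp4 and Afp.

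The study set aggregates of stem cells against natural embryos at the single-cell level to compare lineages between them. Embryoids were made by seeding 10000 embryonic stem (ES) cells of the Lifeact-RFPruby line with 50000 to 80000 XTE cells in AggreWell plates for 48 h, followed by 48 h in cell-repellent plates. The XTE cells came from a Gata6-H2B:Venus ES line by reprogramming and were kept in N2B27 with CHIR99021, BMP4, Fgf4, heparin and Activin, and the ES cells had been grown in serum with PD0325901, CHIR99021 and Lif. The blastocysts were whole E4.5 embryos of the B6C3F1 strain, grown without any of these agents as far as the labels say. Both kinds of material were dissociated with TrypLE, and 6000 cells each went into a BD Rhapsody whole-transcriptome library of polyadenylated RNA. Which of the cell lines an embryoid cell came from was not determined here. There was 1 library of each kind, so embryoid against blastocyst, cell line against embryo strain and library against library cannot be told apart, and no test between them was possible. All differences below are between 2 summed profiles, and their intervals cover counting error only.

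In the mouse the primitive endoderm, which lines the blastocyst cavity and is specified by Gata6 and FGF signalling, splits into visceral endoderm around the embryo and parietal endoderm along the outer wall. Visceral endoderm is an absorptive epithelium: cubilin, amnionless and megalin take up proteins at its apical face, and the cells secrete apolipoproteins, retinol-binding protein, transthyretin and other carriers before a liver exists. Parietal endoderm is migratory and lays down a thick basement membrane of laminin, collagen IV and nidogen.

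The deposited matrices held 5546 embryoid and 1288 blastocyst barcodes, and 9 barcode sequences were shared between them, none among endoderm cells. Visceral-type cells had a median of 6838 UMIs (1339 to 30192) in the embryoid and 9024 (3235 to 15648) in the blastocyst library, and 2958 and 3390 genes at the median. Summed, they gave 10248756 embryoid and 262689 blastocyst UMIs, so that 1 UMI was worth 0.0976 counts per 1000000 UMIs (CPM) in the embryoid profile and 3.81 CPM in the blastocyst profile. A level of 3 UMIs, used as the floor for a gene with none, was 0.293 CPM and 11.4 CPM. Mitochondrial UMIs were 6.38% and 9.86% at the median. No visceral-type cell was called a doublet, but the caller marked 1 embryoid barcode in all (0.0192%) and so had not worked there.

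The selecting genes differed in their balance between the libraries, which is a description since they chose the cells. Spink3 had a median of 10 UMIs per embryoid visceral-type cell (1 to 109) and of 1.5 per blastocyst visceral-type cell (1 to 7). Spink3 rested on a single UMI in 18 of the 1362 embryoid cells (1.32%) and in 14 of the 28 blastocyst cells (50.0%). Cubn had a median of 1 UMI in embryoid and 3.5 in blastocyst visceral-type cells, and Amn had 1 and 4.5. Of the 1362 embryoid cells, 602 had no Cubn UMI and 497 had no Amn UMI. Embryoid cells thus reached the sum of 5 UMIs mainly through Spink3 and blastocyst cells mainly through Cubn and Amn. In the blastocyst library, however, the Spink3 condition decided which cells were kept. There, 88 endoderm cells reached the sum, 30 had a Spink3 UMI and 28 met both conditions. Other blastocyst endoderm therefore includes cells that reached the sum without Spink3. In summed profiles Spink3 stood at 1980 CPM in embryoid and 221 CPM in blastocyst visceral-type cells, against 116 and 2.07 CPM in other endoderm. Cubn and Amn stood at 20.6 and 48.6 CPM in other embryoid endoderm but still at 253 and 483 CPM in other blastocyst endoderm. At the threshold, 159 embryoid cells had exactly 5 UMIs of the 3 genes (150 of them with Spink3) and 149 had 4 (135 with Spink3). In the blastocyst library 10 cells had 5 (1 with Spink3) and 9 had 4 (none with Spink3). Spink3 UMIs were found in 6.38% of embryoid epiblast-type cells, and in 0.405% of epiblast-type and 0.546% of trophectoderm-type cells of the blastocyst library. The part of free RNA, doublets and expression in these was not tested.

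**Figure D1:**
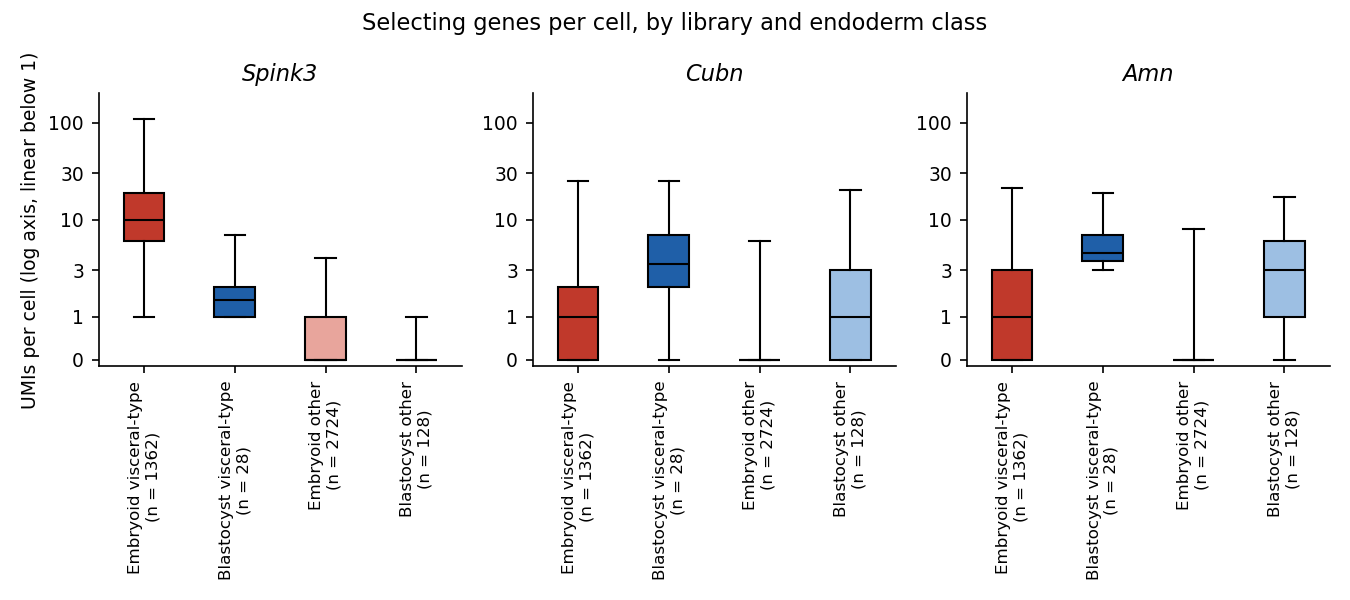
UMIs per cell of Spink3, Cubn and Amn in visceral-type and other endoderm of each library (boxes: quartiles and median; whiskers: lowest and highest cell). Spink3 stands highest in embryoid visceral-type cells (median 10 UMIs), while Cubn and Amn stand highest in blastocyst visceral-type cells (medians 3.5 and 4.5).

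The number of blastocyst cells depended on the Spink3 and Utf1 conditions. Without that on Spink3, 88 blastocyst endoderm cells had 5 UMIs of the 3 genes. Of 539 blastocyst cells with endoderm genes, 278 stayed under 3 UMIs of the epiblast genes, against 480 when Utf1, a chromatin-bound pluripotency factor, was left out of that sum. Utf1 had at least 1 UMI in 64.3% of the 28 blastocyst visceral-type cells, in 98.4% of epiblast-type cells and in 2.42% of embryoid visceral-type cells. As Utf1 was in the sum that chose the epiblast-type cells and limited the visceral-type cells, these shares are a description. Without the Utf1 condition, an alternative chosen after seeing the data, there were 78 blastocyst visceral-type cells of 341 endoderm cells (22.9%) with 927835 UMIs, and 1363 embryoid ones. Values from these 78 cells are given beside the main results that they change.

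The endoderm identity held against markers of other cells, but that of mature visceral endoderm did so only in part. All 13 fibroblast and mesoderm markers together reached 13.7 CPM in embryoid visceral-type cells and were at 0 UMIs in blastocyst visceral-type cells. Trophectoderm markers summed to 124 CPM in embryoid and 164 CPM in blastocyst visceral-type cells, against 8653 CPM in trophectoderm-type cells of the blastocyst, and Cdx2, Elf5 and Gata2 were among 8 of 14 at 0 UMIs in the blastocyst cells. Epiblast markers summed to 176 CPM in embryoid visceral-type cells, with Pou5f1, Fgf4 and Foxd3 at 0 UMIs, and to 537 CPM in blastocyst ones, where Pou5f1 had 22.8 CPM. They summed to 1943 and 1841 CPM in the epiblast-type cells of each library. Blood markers summed to 2.24 and 15.2 CPM, and markers of definitive endoderm and gut to 50.4 and 11.4 CPM. Afp, the fetal albumin of visceral endoderm, had 6.34 CPM in embryoid visceral-type cells and no UMI in blastocyst ones. Trf, the iron carrier transferrin, had 2.34 CPM and no UMI, and Alb had no UMI in either. Afp, Trf and Alb were thus at trace level or without a UMI in both sets of cells. Other carriers of visceral endoderm, among them Ttr and Rbp4, stood well above trace level in embryoid cells and are given below.

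Embryoid visceral-type cells stood apart from blastocyst visceral-type cells in many genes. A gene was called higher or lower at a 2-fold difference of CPM plus 1, among genes whose mean of the 2 CPM was at least 5, leaving out the 15 genes of the rule. Of 9776 such genes 1977 were higher (20.2%) and 1316 lower (13.5%) in embryoid cells, and the median log2 ratio over all was 0.04. These shares are the background for every list below. They also contain counting noise of the blastocyst profile, in which 5 CPM is about 1 UMI. Among other endoderm cells of the same libraries, 1865 of 10063 genes were higher (18.5%) and 1282 lower (12.7%). Values of other endoderm are given where they add to those of visceral-type cells.

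Of uptake genes, the rule used Cubn and Amn only. Of the 12 listed receptors and adaptors that reached 5 CPM, 1 was higher and 3 were lower in embryoid cells, with a median log2 ratio of 0.29, which was -0.20 with the 78 cells. These counts are near the background of 20.2% higher and 13.5% lower. Dab2, the endocytic adaptor of megalin and cubilin, had 1638 CPM in embryoid and 1340 CPM in blastocyst visceral-type cells (log2 ratio 0.29, interval 0.14 to 0.45). Lrp2, which encodes megalin, had 349 and 286 CPM (log2 ratio 0.29, -0.04 to 0.64). With the 78 blastocyst cells both turned round: Dab2 then had 2109 CPM and Lrp2 572 CPM in the blastocyst, and the log2 ratios were -0.36 and -0.71. Clathrin heavy chain, Cltc, had 1541 and 1211 CPM. The megalin chaperone Lrpap1 was lower in embryoid cells, at 384 against 857 CPM (log2 ratio -1.16), and so was the folate receptor Folr1, at 64.1 against 129 CPM. At 3000 UMIs per cell, to which all shares below were thinned (45 of the 1362 embryoid cells were too shallow and left out), Dab2 was found in 93.2% of embryoid and 100% of the 28 blastocyst visceral-type cells, against 6.98% and 2.16% of epiblast-type cells and 78.9% of trophectoderm-type cells of the blastocyst, which express it too. Unthinned shares of Dab2 were 98.3% and 100%.

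Apolipoproteins and the genes that load lipid onto them did not share a direction. Of 11 listed genes that reached 5 CPM, 7 were higher and 1 lower in embryoid cells. Their median log2 ratio was 2.53, or 0.80 when the 3 without a blastocyst UMI were set to their lower bound. The list median was 1.58 with the 78 blastocyst cells. Apoe, which carries lipid between cells, had 1739 CPM in embryoid and 384 CPM in blastocyst visceral-type cells (log2 ratio 2.17, 1.90 to 2.47). With the 78 blastocyst cells the ratio was 1.58. Apoe was not limited to endoderm: 76.7% of embryoid and 85.8% of blastocyst epiblast-type cells held it at 3000 UMIs, and how much of this was free RNA was not tested. Mttp, the transfer protein that loads lipid onto apolipoprotein B, had 113 CPM in embryoid cells against a single blastocyst UMI (3.81 CPM; log2 ratio 4.57, 2.42 to 10.20). With the 78 cells Mttp had 24.8 CPM in the blastocyst, and the log2 ratio was 2.15. Soat2, which esterifies cholesterol, had 92.8 and 15.2 CPM (log2 ratio 2.53, 1.25 to 4.49, and 1.45 with the 78 cells). Apom, a carrier in high-density lipoprotein, had 106 and 83.7 CPM, and its interval spans no difference (log2 ratio 0.34, -0.26 to 1.03). Its ratio was 0.41 with the 78 cells, with an interval just above 0 (0.07 to 0.77). Apoc1 was lower in embryoid cells, at 34.9 against 118 CPM (log2 ratio -1.73, -2.29 to -1.18). In other endoderm 7 members reached 5 CPM, and their median log2 ratio was -0.54. Over every member with a UMI in either profile the medians were 0.98 in visceral-type cells (15 genes) and 0.10 in other endoderm (13 genes), so the sign of the list in other endoderm depends on the members counted.

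Carriers of visceral endoderm had the highest list median between the libraries. All 7 listed genes that reached 5 CPM were higher in embryoid cells, with a median log2 ratio of 5.17 (4.22 with members at 0 at their bound), but 5 of them had no blastocyst UMI and so could reach 5 CPM through the embryoid cells alone. Ttr, the thyroid hormone carrier transthyretin, had 559 CPM in embryoid visceral-type cells and no UMI in the 28 blastocyst cells, at least 49.0-fold higher. Rbp4, the retinol carrier, had 493 CPM and no UMI, at least 43.2-fold higher. At 3000 UMIs Ttr was found in 59.1% of embryoid visceral-type cells (56.4 to 61.8%) and in 0 of 28 blastocyst cells, which allows a share of up to 10.7%. Rbp4 was found in 47.3% and in 0 of 28. Unthinned, the embryoid shares were 75.7% for Ttr and 66.8% for Rbp4, and the share of embryoid epiblast-type cells at 3000 UMIs was 1.16% for each. Among the 78 blastocyst cells Ttr had 5.39 CPM and Rbp4 still none. S100g and S100a1, which bind calcium inside cells, had 796 and 1228 CPM in embryoid against 41.9 and 45.7 CPM in blastocyst visceral-type cells. Igfbp1, which binds insulin-like growth factors, had 138 CPM and no UMI, at least 12.0-fold higher. The 14 matched genes of the list gave a median of 8 UMIs per embryoid cell, with 24 of 1317 cells at 0 (1.82%), and a median of 0 UMIs per blastocyst cell, with 20 of 28 at 0 (71.4%). Much of the embryoid sum of 3294 CPM came from S100a1 and S100g, so it does not stand for secreted carriers alone. Nor was it particular to visceral-type cells: other embryoid endoderm had a median of 7 UMIs, with 65 of 2258 cells at 0 (2.88%). Other endoderm showed the same split, with 134 CPM of Ttr and 203 CPM of Rbp4 in the embryoid and no UMI of either in the blastocyst library. Among retinoid genes Cyp26a1, which breaks retinoic acid down, had 239 against 15.2 CPM (53.9 CPM in the 78 cells), while the retinol receptor Stra6 was lower in embryoid cells, at 8.68 against 152 CPM (log2 ratio -3.98).

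**Figure D2:**
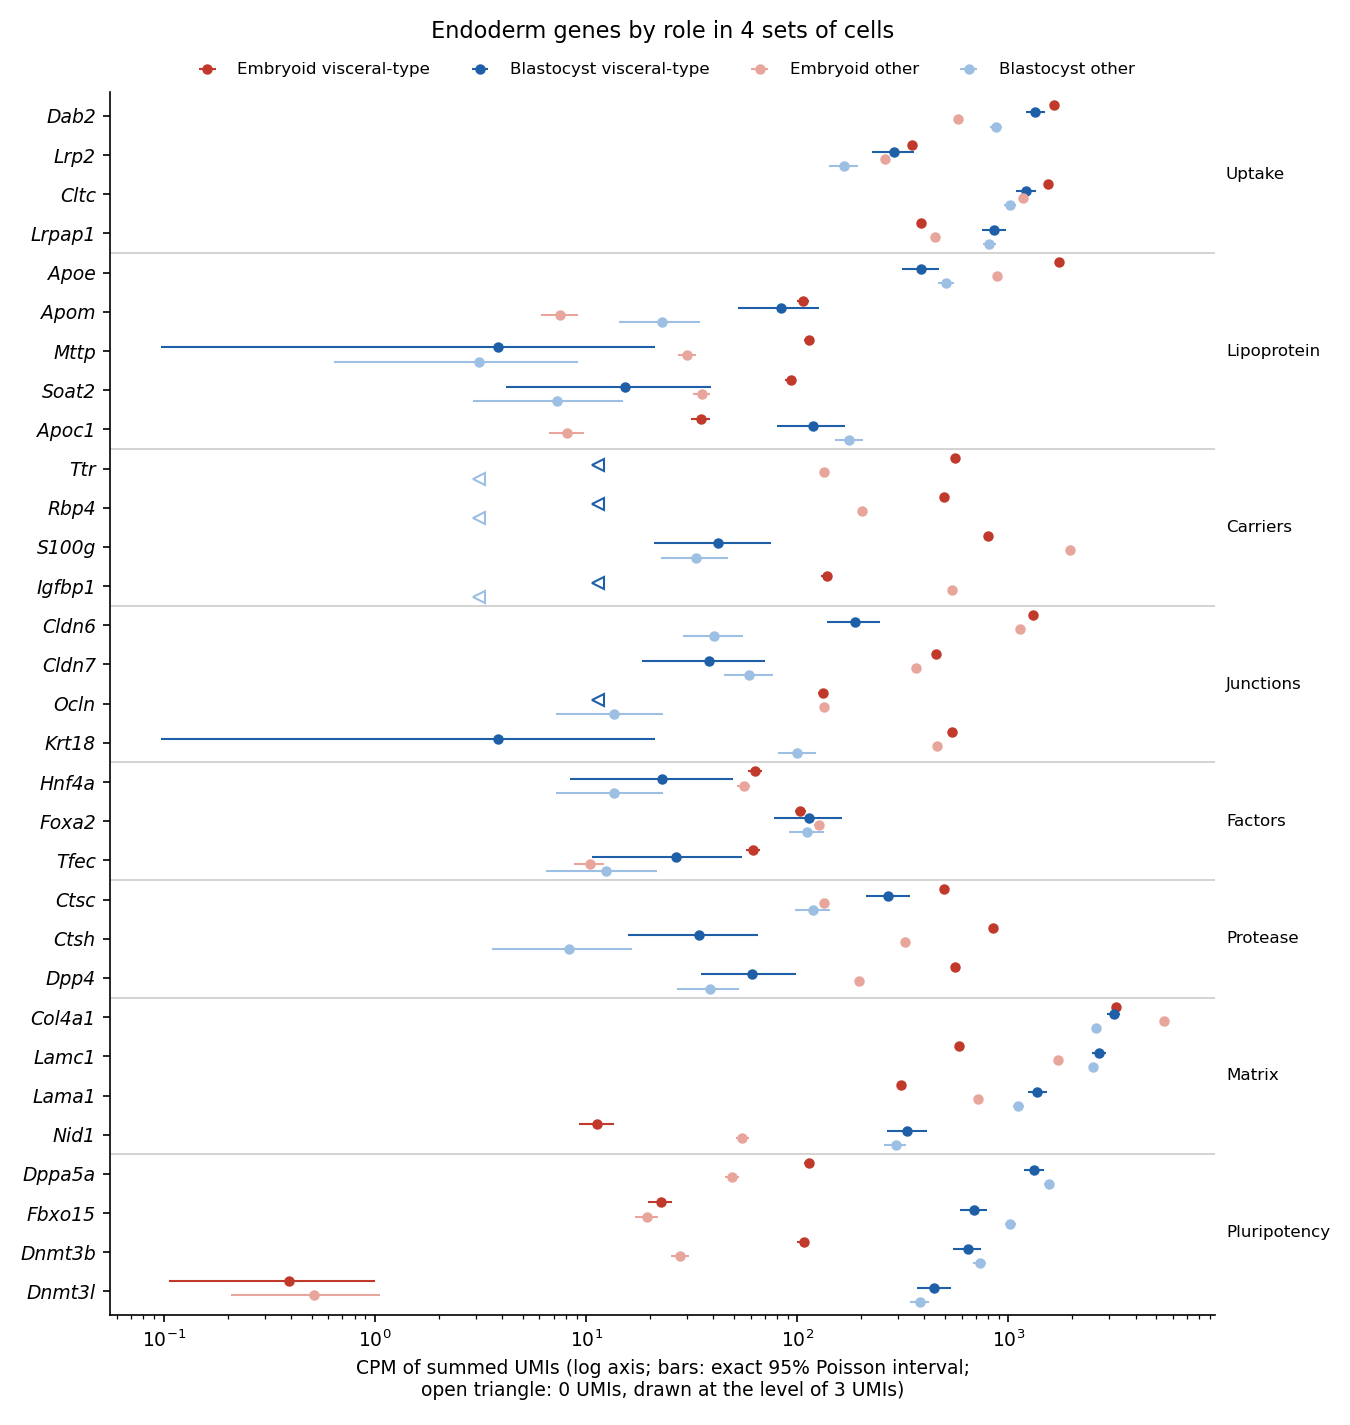
CPM of summed UMIs for 31 genes in visceral-type and other endoderm of both libraries, with exact 95% Poisson intervals on a log axis; open triangles mark genes without a UMI at the level of 3 UMIs. Dab2, Col4a1 and Foxa2 lie close together in both visceral-type sets, Ttr, Rbp4 and Igfbp1 have no blastocyst UMI, and Lamc1, Nid1 and Dnmt3l lie lower in embryoid cells.

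Junction and apical genes were higher in embryoid cells or near equal. Of 14 tight junction and polarity genes that reached 5 CPM, 9 were higher and none lower, with a median log2 ratio of 1.29 (0.72 in other endoderm). The claudins Cldn6 and Cldn7, which seal the space between epithelial cells, had 1312 and 454 CPM in embryoid against 187 and 38.1 CPM in blastocyst visceral-type cells (log2 ratios 2.81 and 3.54). With the 78 cells Cldn6 had 357 CPM in the blastocyst and a ratio of 1.88. Ocln, the junction protein occludin, had 132 CPM and no blastocyst UMI, at least 11.5-fold higher, but 14.0 CPM in the 78 cells (log2 ratio 3.14). Cdh1, the adhesion protein E-cadherin, had 255 and 187 CPM (log2 ratio 0.45, 0.05 to 0.89), and Tjp1, a scaffold of the tight junction, had 192 and 64.7 CPM. Of the brush border list 6 of 10 genes that reached 5 CPM were higher and none lower. Among them were keratins of simple epithelia. Krt18 had 543 CPM in embryoid cells and a single blastocyst UMI (log2 ratio 6.82, 4.68 to 12.46), Krt8 had 122 and 7.61 CPM (3.83, 2.14 to 7.04), and Krt19 had 216 CPM and no UMI, at least 18.9-fold higher. These keratins are also trophectoderm genes, and trophectoderm-type cells of the blastocyst held 2138 CPM of Krt18. Ezr, which links the apical membrane to actin, had 470 and 293 CPM (log2 ratio 0.68). The villus bundling protein Vil1 had 31.0 CPM and no blastocyst UMI, at least 2.72-fold higher. Of 19 lysosomal genes 7 were higher and none lower, with a median log2 ratio of 0.87. Ctsh and Lgmn, proteases of the lysosome, had 848 and 773 CPM in embryoid against 34.3 and 206 CPM in blastocyst cells, while the lysosomal membrane protein Lamp1 had 1445 and 1039 CPM.

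The transcription factors of endoderm went both ways. Of 10 that reached 5 CPM beside the forkhead and HNF factors 4 were higher and 1 was lower (median 0.25), but with the 78 cells 2 of 11 were higher and 4 lower (median -0.77). Tfec, a factor of the MiT family, turned from a log2 ratio of 1.19 to -1.49 with them. Foxa2 had 103 and 114 CPM (log2 ratio -0.14, -0.67 to 0.43), which did not differ beyond counting error. Hnf4a, a regulator of apolipoprotein and Ttr genes, had 62.9 and 22.8 CPM (log2 ratio 1.42, 0.33 to 2.91), and with the 78 cells the blastocyst level was 43.1 CPM and the log2 ratio 0.54. The forkhead factor Foxq1 had 683 and 1077 CPM (log2 ratio -0.66). Klf5 was lower in embryoid cells, at 65.2 against 365 CPM (log2 ratio -2.47, -2.80 to -2.16). Ihh, the hedgehog ligand of visceral endoderm, was higher, at 119 against 11.4 CPM (log2 ratio 3.27, 1.83 to 5.66). Of 7 genes of the anterior visceral endoderm that reached 5 CPM 3 were higher and 3 lower (median -0.34), and with the 78 cells 3 of 9 were higher and 6 lower (median -1.78). The Wnt antagonist Dkk1 had 29.4 CPM in embryoid and 445 CPM in blastocyst visceral-type cells (log2 ratio -3.88), and the Nodal antagonist Lefty1 had 2.05 and 34.3 CPM (log2 ratio -3.53, and -5.37 with the 78 cells). The activin-binding protein Fst had 110 and 11.4 CPM (log2 ratio 3.16, 1.72 to 5.55), and the Wnt antagonist Frzb had 53.3 CPM and no blastocyst UMI, at least 4.66-fold higher. Cer1, another Nodal antagonist, had no UMI in either.

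Matrix genes were lower in embryoid visceral-type cells for laminin and nidogen but not for collagen IV. Of 19 basement membrane genes, 1 was higher and 8 were lower, and the list summed to 16082 CPM in embryoid and 24721 CPM in blastocyst cells. With the 78 cells 6 were lower, and the median log2 ratio was -0.31 in place of -0.62. The laminin subunits Lamc1, Lama1 and Lamb1 had 581, 310 and 909 CPM in embryoid cells against 2684, 1370 and 1907 CPM in blastocyst cells. Their log2 ratios were -2.21, -2.14 and -1.07, the last of which was -0.73 with the 78 cells. Nid1, which links laminin to collagen, had 11.2 and 331 CPM (log2 ratio -4.76, -5.30 to -4.46), and the proteoglycan Hspg2 had 42.3 and 331 CPM. Col4a1 had 3239 and 3144 CPM (log2 ratio 0.04, -0.06 to 0.14) and Col4a2 1277 and 986 CPM. In other endoderm the laminins lay closer together, with Lamc1 at 1721 CPM in the embryoid and 2515 CPM in the blastocyst library (log2 ratio -0.55), while Col4a1 was higher in the embryoid, at 5452 against 2608 CPM. Per cell at 3000 UMIs, the 19 genes had a median of 47 UMIs in embryoid (11 to 132) and 72 UMIs in blastocyst visceral-type cells (44 to 130), so the ranges overlapped.

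Listed naive pluripotency genes were lower in embryoid visceral-type cells or did not reach the fold. Of 13 naive pluripotency genes that reached 5 CPM none was higher and 9 were lower in embryoid cells, with a median log2 ratio of -1.95 (-1.61 with the 78 cells, and -2.95 in other endoderm). Dppa5a, an RNA-binding protein of pluripotent cells, had 114 CPM in embryoid and 1321 CPM in blastocyst visceral-type cells (log2 ratio -3.53, -3.71 to -3.36). The ubiquitin ligase subunit Fbxo15 had 22.5 and 685 CPM, and Tbx3 had 123 and 480 CPM. The nuclear receptor Esrrb had no UMI in the 1362 embryoid cells and 126 CPM in the blastocyst cells, at least 429-fold lower. Of 8 DNA methylation genes that reached 5 CPM, 5 were lower, or 4 with the 78 cells. Dnmt3l, the cofactor of de novo methylation, had 4 UMIs in all embryoid visceral-type cells (0.39 CPM) and 445 CPM in blastocyst ones, and the de novo enzymes Dnmt3a and Dnmt3b had 69.2 and 107 CPM against 293 and 640 CPM. Epiblast-type cells of the blastocyst library held 2300 CPM of Dppa5a, 659 CPM of Fbxo15, 354 CPM of Esrrb and 595 CPM of Dnmt3l, and what part free RNA of these cells had in the blastocyst levels was not tested. Trophectoderm-type cells held 2633 CPM of Dppa5a, 995 CPM of Fbxo15, 167 CPM of Dnmt3l and 5.91 CPM of Esrrb. At 3000 UMIs Fbxo15 was found in 71.4% of visceral-type, 91.2% of trophectoderm-type and 82.3% of epiblast-type cells of the blastocyst, so the first 3 of these genes were not limited to the inner cell mass.

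Other genes among the lowest 15 in embryoid cells encode signals, junction proteins and secreted proteins. Fgf10, a ligand of FGF receptor 2, had 1.17 CPM in embryoid and 331 CPM in blastocyst visceral-type cells (log2 ratio -7.26) and was found in 0.152% and 60.7% of cells at 3000 UMIs. The share in blastocyst epiblast-type cells was 10.3%, and no trophectoderm-type cell held it at that depth. The secreted protease Htra1 had 4.59 and 423 CPM, the complement inhibitor Serping1 1.46 and 240 CPM, and the connexin Gjb5 0.39 and 266 CPM. In the blastocyst library Htra1 was found in 21 of 28 visceral-type cells at 3000 UMIs, 12.3% of trophectoderm-type and 11.2% of epiblast-type cells. Gjb5 was found in 57.1% of visceral-type, 25.7% of trophectoderm-type and 8.19% of epiblast-type cells. Xist, the RNA that coats the inactive X chromosome, had 2 UMIs in embryoid visceral-type cells (0.195 CPM) and 118 CPM in blastocyst ones (interval of the log2 ratio -12.35 to -7.27). Xist was found in 25.0% of blastocyst visceral-type cells at 3000 UMIs, 25.1% of trophectoderm-type and 1.29% of epiblast-type cells. Among the 15 highest, the VEGF receptor Flt1 had 717 and 3.81 CPM (log2 ratio 7.22, 5.08 to 12.86), the heparan sulfate proteoglycan Gpc3 1692 and 30.5 CPM (log2 ratio 5.75, 4.82 to 7.01), and the adhesion molecule Cd24a 790 and 3.81 CPM (7.36, 5.22 to 13.00). Clu, the chaperone clusterin, had 189 CPM and no UMI, at least 16.5-fold higher, and the selenium carrier Sepp1 had 465 and 3.81 CPM (6.60, 4.45 to 12.24).

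Lists outside endoderm function also differed between the libraries. All 12 immediate early genes, which respond within minutes to handling and growth factors, were higher in embryoid cells, with a median log2 ratio of 2.57, and Jun had 1736 and 11.4 CPM (log2 ratio 7.13, 5.70 to 9.53, and 5.85 with the 78 cells). The same list had a median of 2.65 in other endoderm. Of 12 p53 targets that reached 5 CPM 7 were higher (median 1.58; 9 and 2.04 with the 78 cells), with the cell cycle inhibitor Cdkn1a at 420 and 15.2 CPM. Of 10 hypoxia genes 8 were higher (median 1.95), with the mitophagy receptor Bnip3 at 567 and 68.5 CPM. Of 15 glycolysis genes 10 were higher (median 1.19; 8 and 1.07 with the 78 cells), with the glucose transporter Slc2a3 at 2562 and 879 CPM. Oxidative phosphorylation stood at a median of 0.10 and G2/M genes at -0.04, while 5 of 13 S phase genes were lower and 1 was higher (median -0.75). Of 14 listed imprinted genes expressed from the paternal allele 9 reached 5 CPM, and 7 of these were higher in embryoid cells. Of 9 expressed from the maternal allele 6 reached 5 CPM, and 5 of these were higher. The medians of the log2 ratio were 3.59 and 2.83 (2.36 and 2.50 at their bounds), but 4 of the 9 and 1 of the 6 had no blastocyst UMI and so could reach 5 CPM through the embryoid cells alone. Igf2, a fetal growth factor, had 1366 and 49.5 CPM, and H19 had 675 and 53.3 CPM although it was found in 17.4% and 14.3% of cells at 3000 UMIs. Peg10, which derives from a retrotransposon, had 378 CPM and no blastocyst UMI, at least 33.1-fold higher. Of 7 BMP targets that reached 5 CPM 4 were higher (median 2.36, or 0.86 at bounds), among them Id3, an inhibitor of differentiation, at 175 and 26.6 CPM. Wnt feedback genes and antagonists stood at 0.08 and amino acid stress genes at -0.55. FGF and ERK targets had a median of 1.08, which was 0.20 with the 78 cells, and interferon and MHC class I genes had 0.39, which was 1.42 with the 78 cells. For all of these lists handling, culture and library cannot be told apart.

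**Figure D3:**
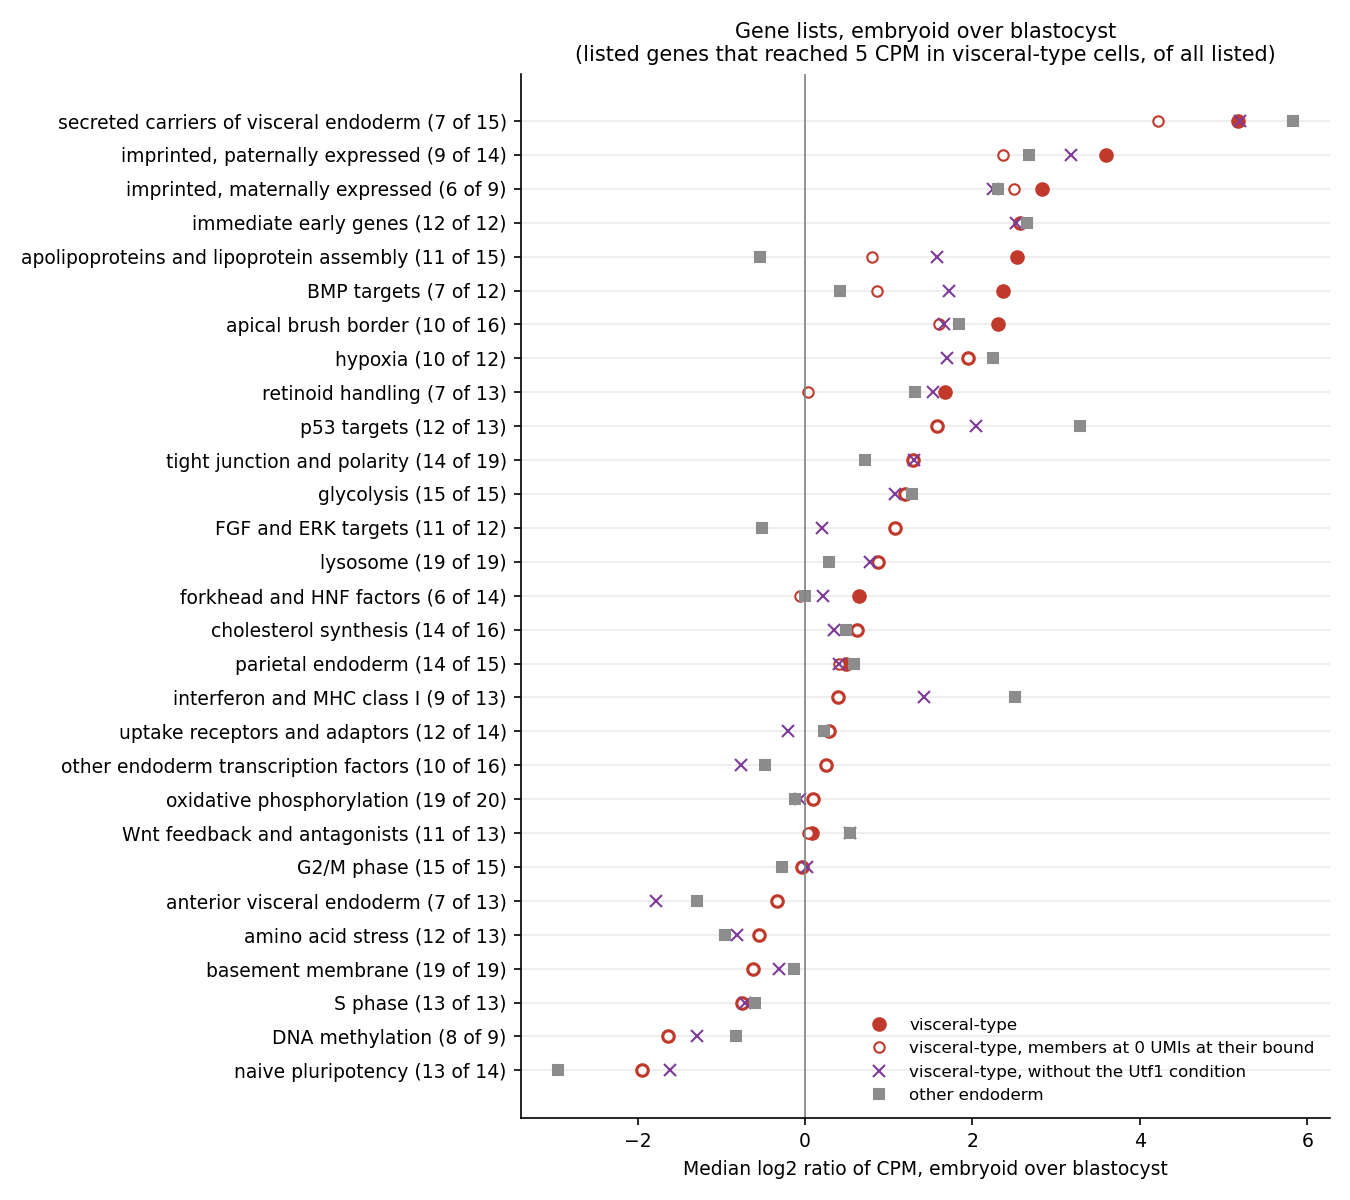
Median log2 ratio of CPM, embryoid over blastocyst, for the gene lists drawn, over the listed genes that reached 5 CPM in that comparison: visceral-type cells, the same with members at 0 UMIs set to their bound, visceral-type cells without the Utf1 condition, and other endoderm. The marker lists of other cells and the X inactivation list are not drawn. Of the lists drawn, carriers stand highest in visceral-type cells (5.17) and naive pluripotency genes lowest (-1.95). Some lists not drawn were lower, among them X inactivation (-6.64, Xist alone), blood markers (-3.5) and epiblast markers (-2.11). Apolipoproteins stand at 2.53 over 11 members in visceral-type cells and at -0.54 over 7 members in other endoderm.

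Within the embryoid, visceral-type cells were set against other endoderm of the same library. The cells were chosen on raw UMIs, so visceral-type cells were deeper (median 6838 against 4574 UMIs), and the comparison is a description with no test. Of 9865 genes 131 were at least 2-fold higher (1.33%) and 187 lower (1.90%), with a median log2 ratio of -0.05. Lipid transport genes led the higher ones. Of 11 apolipoprotein and lipoprotein genes that reached 5 CPM 8 were higher and none lower (median 1.88). Apom had 106 CPM in visceral-type and 7.50 CPM in other embryoid endoderm (log2 ratio 3.66, 3.53 to 4.13). Apob, the scaffold protein of lipoprotein particles, had 70.3 and 6.76 CPM (log2 ratio 3.20, 3.06 to 3.71). Mttp had 113 and 30.1 CPM, and Ttr 559 and 134 CPM (log2 ratio 2.06, 1.99 to 2.14). Dab2 had 1638 and 579 CPM (log2 ratio 1.50, 1.46 to 1.54). Tfec had 61.9 and 10.4 CPM. Amot, an inhibitor of YAP, had 351 and 90.1 CPM, and the lysosomal protease Ctsc 496 and 134 CPM. The apical peptidase Dpp4 had 559 and 195 CPM. Of 14 cholesterol synthesis genes 4 were higher (median 0.82), among them Cyp51, which removes a methyl group from lanosterol, at 273 and 125 CPM, and of 11 FGF and ERK targets 4 were higher (median 0.87), among them the feedback inhibitor Spry4 at 56.1 and 14.6 CPM.

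Among the genes lower in visceral-type embryoid cells were some of matrix and growth factor signalling. Fst had 110 CPM in visceral-type and 485 CPM in other endoderm (log2 ratio -2.12, -2.23 to -2.04). Igfbp5 and Igfbp1 had 28.3 and 138 CPM against 159 and 542 CPM. The clotting initiator F3 had 204 and 672 CPM, and Lamc1 had 581 and 1721 CPM (log2 ratio -1.57, -1.61 to -1.53). Nid1 had 11.2 and 54.9 CPM. Of 19 basement membrane genes none was higher and 4 were lower, and of 14 parietal endoderm genes 1 was higher (Clic6) and 4 were lower. Peg10 had 378 and 1184 CPM, and Flt1 717 and 1646 CPM. Some groups did not separate the classes: tight junction genes (median -0.04), lysosomal genes (-0.01), immediate early genes (-0.04) and p53 targets (-0.04) held no gene 2-fold apart except Ctsc and Ctsh, both lysosomal and higher.

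Levels were also followed along the genes of the rule. Embryoid endoderm cells thinned to 3000 UMIs were put into 5 bands by their summed Spink3, Cubn and Amn, which takes depth out of the choice. As the bands were cut on genes of the rule and most genes given were already seen to differ, their levels are a description. The bands held 1462 cells with 0 UMIs, 1267 with 1 to 4, 483 with 5 to 9, 278 with 10 to 19 and 85 with 20 or more. Apom stood at 4.33, 25.8, 84.9, 179 and 396 CPM from the lowest to the highest band, and Apob at 3.19, 16.8, 57.3, 125 and 341 CPM. Dab2 stood at 475, 917, 1608, 2215 and 3302 CPM, and Ttr at 111, 227, 478, 833 and 1510 CPM. These genes were still higher in the last band than in the one before, whereas Dpp4 (124, 398, 620, 645 and 667 CPM) levelled off. Fst went the other way, with 543, 306, 75.2, 36.0 and 19.6 CPM, and so did Lamc1, with 1942, 1120, 607, 465 and 365 CPM. Krt18 stayed between 427 and 549 CPM in all 5 bands. Other genes did not change in 1 direction throughout. Rbp4 stood at 147, 381, 530, 487 and 918 CPM, Peg10 at 1386, 725, 315, 372 and 518 CPM, S100g at 2319, 1180, 622, 568 and 667 CPM and Cited1 at 1467, 999, 638, 742 and 671 CPM.

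**Figure D4:**
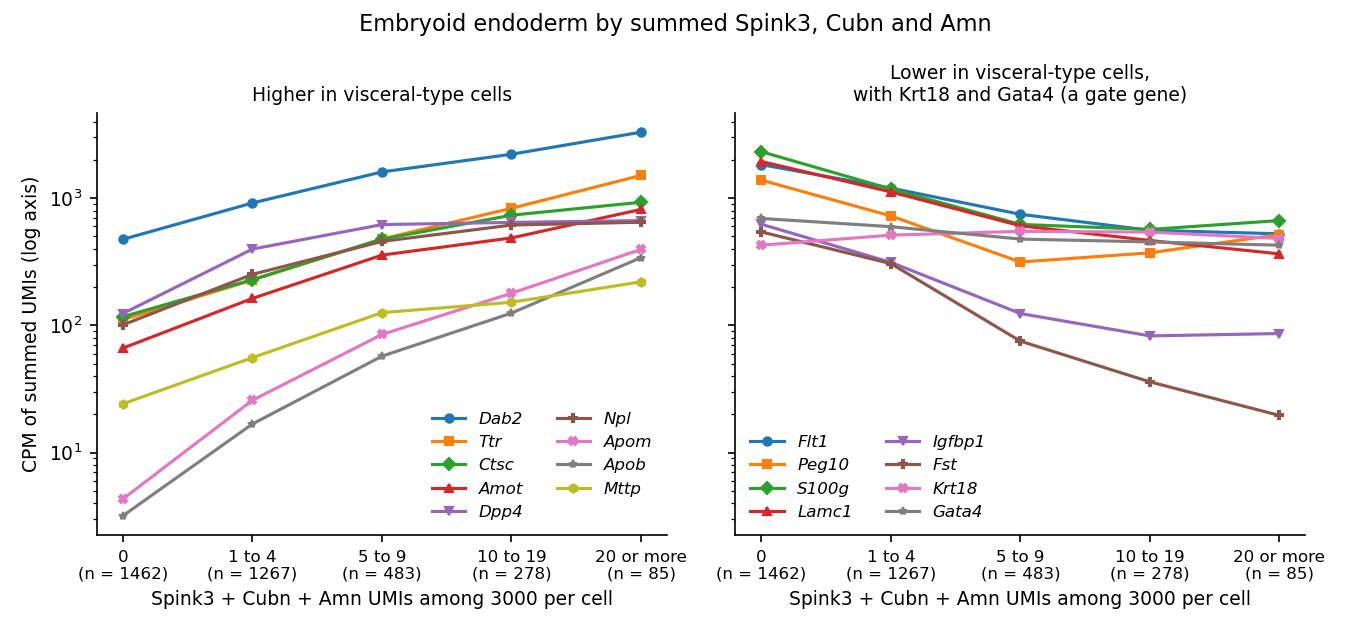
CPM of summed UMIs (log axis) in 5 bands of embryoid endoderm cells by summed Spink3, Cubn and Amn UMIs among 3000 per cell, the number of cells under each band. Apom spans 4.33 to 396 CPM and Dab2 475 to 3302 CPM from the lowest to the highest band, Fst 543 to 19.6 CPM, and Krt18 stays between 427 and 549 CPM.

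Within the blastocyst the same comparison rested on 28 visceral-type and 128 other endoderm cells. Visceral-type cells were again deeper (median 9024 against 7229 UMIs). Of 9511 genes 530 were at least 2-fold higher (5.57%) and 873 lower (9.18%), shares that include counting noise of a profile in which 1 UMI is 3.81 CPM. Among the 15 highest, Cldn6 had 187 CPM in visceral-type and 40.5 CPM in other blastocyst endoderm (log2 ratio 2.18, 1.57 to 2.85), but its ratio was -1.41 in the 9 visceral-type cells without any UMI of the epiblast genes. Cited1, a transcriptional coactivator, had 76.1 and 14.5 CPM (log2 ratio 2.31, 1.33 to 3.49), and Apom 83.7 and 22.8 CPM (log2 ratio 1.83, 0.95 to 2.80). Plaur, the urokinase receptor, had 118 and 40.5 CPM, and Ctsc 270 and 118 CPM (log2 ratio 1.19, 0.74 to 1.63). The highest gene, the germ cell gene Dazl, had 22 UMIs in 2 cells, of which 18 lay in 1 cell. Dab2 had 1340 and 875 CPM (log2 ratio 0.61, 0.43 to 0.80). Several of the 15 lowest are trophectoderm genes. Krt18 had a single UMI (3.81 CPM; log2 ratio -4.39, -10.03 to -2.20) in visceral-type and 99.6 CPM in other blastocyst endoderm, against 2138 CPM in trophectoderm-type cells. Tmsb4x, an actin-binding peptide, had 60.9 and 202 CPM against 6409 CPM, and its log2 ratio was 0.01 among cells with at most 10% mitochondrial UMIs. The trophectoderm marker list summed to 164 CPM in visceral-type and 270 CPM in other blastocyst endoderm, and its part in these differences was not tested. Nr0b1, a nuclear receptor of pluripotent cells, had 30.5 and 115 CPM.

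Some of the genes higher in visceral-type cells were shared by the 2 libraries under the full rule, and more were without the Utf1 condition. Under the full rule the blastocyst calls rest on 28 cells, and the part of counting noise in the genes not shared was not tested. Among 8742 genes that reached 5 CPM in both comparisons, 90 were higher in the embryoid (1.03%) and 377 in the blastocyst (4.31%). In both, 13 were higher, which is 14.4% of the embryoid and 3.45% of the blastocyst genes: Apom, Ctsc, Ctsh, Tfec, Eml1, Gpc3, Slc23a1, Lgals2, Nrg1, Gnb4, Gramd1b, Efna3 and Abcb1b. For 5 of them the blastocyst interval spans no difference, as they had 3 to 7 UMIs in visceral-type cells: Gnb4 (log2 ratio 1.28, -0.61 to 3.26), Gramd1b (1.17, -0.98 to 3.37), Eml1 (1.07, -0.60 to 2.74), Tfec (1.04, -0.49 to 2.56) and Abcb1b (interval -1.55 to 3.50). Of the same 8742 genes, 101 were lower in the embryoid (1.16%) and 736 in the blastocyst (8.42%). Lower in both were 14, which is 13.9% of the embryoid and 1.90% of the blastocyst genes. Among 3103 genes with a mean of at least 50 CPM in both comparisons, 33 were higher in the embryoid (1.06%), 13 in the blastocyst (0.419%) and 2 in both, Apom and Ctsc. Lower were 17 (0.548%), 22 (0.709%) and 2. Without the Utf1 condition 94 (1.07%) and 156 (1.78%) of 8763 genes were higher, and 23 were higher in both, or 24.5% and 14.7%. Over all 9433 genes of the blastocyst comparison without that condition 1.99% were higher and 4.05% lower. Dab2, Amot, Dpp4, Mttp, Soat2 and the growth factor Gas6 were among these 23. Dab2 then had 2109 CPM in visceral-type and 962 CPM in other blastocyst endoderm (log2 ratio 1.13, 1.05 to 1.22), and Tfec 176 and 30.2 CPM (log2 ratio 2.50, 2.14 to 2.95). Amot had 382 and 161 CPM, Dpp4 92.7 and 38.1 CPM and Mttp 24.8 and 5.95 CPM. Lrp2 passed 2-fold in the blastocyst, at 572 against 185 CPM (log2 ratio 1.63, 1.45 to 1.82), and was higher by less in the embryoid, at 349 against 259 CPM (log2 ratio 0.43, 0.36 to 0.50). The difference between the libraries was not tested. Cited1 ran in opposite directions. It had 785 CPM in visceral-type and 1365 CPM in other embryoid endoderm (log2 ratio -0.80, -0.84 to -0.76), but 163 and 17.9 CPM in the blastocyst without the Utf1 condition (log2 ratio 3.12). Lamc1, lower in the embryoid visceral-type cells, had 2684 and 2515 CPM in the blastocyst (log2 ratio 0.09, -0.03 to 0.22).

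**Figure D5:**
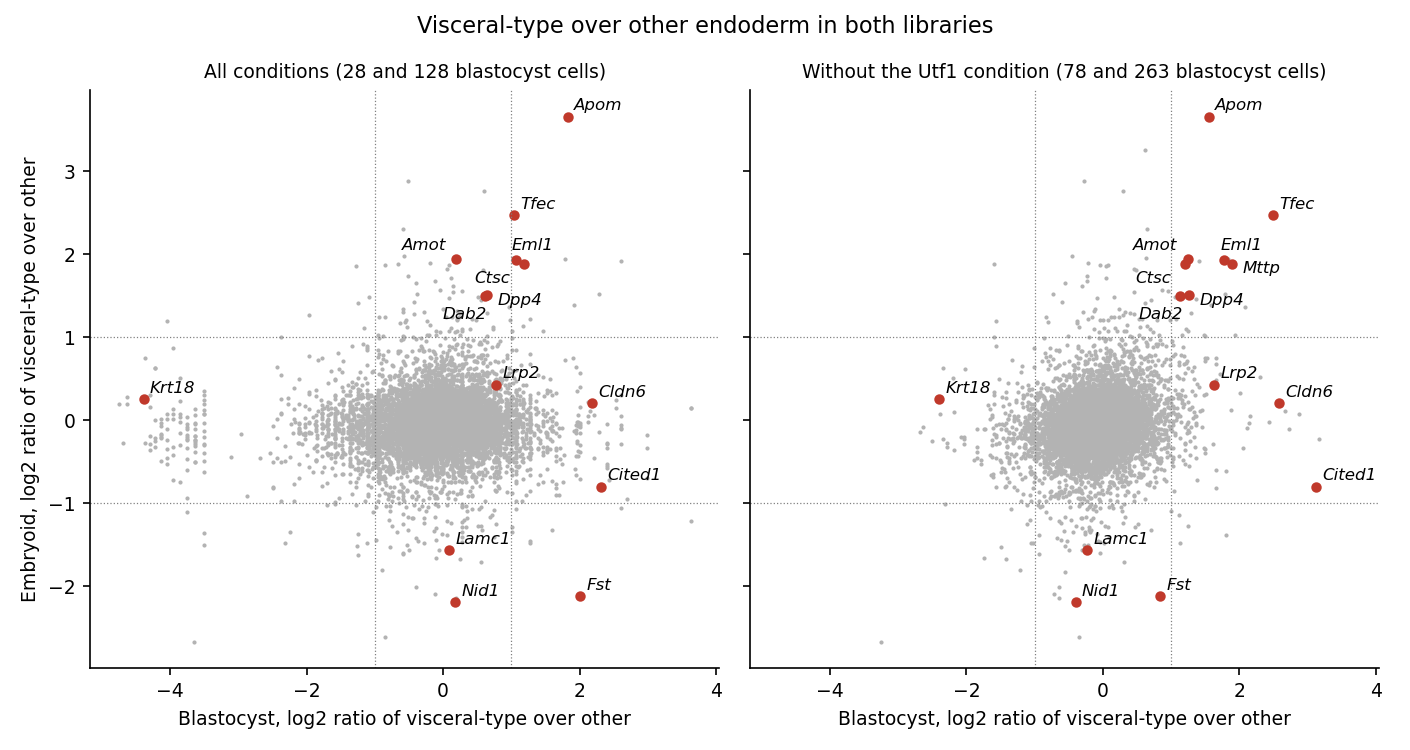
Log2 ratio of visceral-type over other endoderm in the blastocyst (x axis) and the embryoid (y axis) for each gene that reached 5 CPM in both, under the full rule (left) and without the Utf1 condition (right); dotted lines mark 2-fold. Apom and Ctsc lie past 2-fold in both libraries in both panels, Dab2, Dpp4, Amot and Mttp do so on the right, and Cited1 lies on opposite sides of 0.

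Promoters are shown for 3 of these 23 genes that hold a GATA motif and for 1 that does not. Dab2, Dpp4 and Eml1, which encodes a microtubule-binding protein, were higher in visceral-type cells of both libraries without the Utf1 condition, and each has a RefSeq promoter (GRCm38.p6, 250 bases before to 50 after the start site) with AGATAA, the core site of GATA factors such as the Gata4 and Gata6 that define endoderm. Apom had the highest ratio in the embryoid, and its promoter held none of the 3 motifs described here. Capitals mark AGATAA or, read from the opposite strand, TTATCT.
Dab2 promoter, chr15:6299539-6299838, plus strand: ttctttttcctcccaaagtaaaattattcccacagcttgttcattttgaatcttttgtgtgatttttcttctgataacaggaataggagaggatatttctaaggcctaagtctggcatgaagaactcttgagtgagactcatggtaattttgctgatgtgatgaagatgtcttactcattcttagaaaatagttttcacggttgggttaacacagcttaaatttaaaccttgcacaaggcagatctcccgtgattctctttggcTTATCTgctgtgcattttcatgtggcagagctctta
Dpp4 promoter, chr2:62412182-62412481, minus strand: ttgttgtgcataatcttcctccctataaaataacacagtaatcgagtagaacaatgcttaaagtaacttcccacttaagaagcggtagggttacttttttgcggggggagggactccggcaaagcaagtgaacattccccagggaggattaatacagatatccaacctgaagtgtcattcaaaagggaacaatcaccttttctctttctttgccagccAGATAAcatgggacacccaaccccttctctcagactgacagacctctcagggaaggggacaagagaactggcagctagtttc
Eml1 promoter, chr12:108370903-108371202, plus strand: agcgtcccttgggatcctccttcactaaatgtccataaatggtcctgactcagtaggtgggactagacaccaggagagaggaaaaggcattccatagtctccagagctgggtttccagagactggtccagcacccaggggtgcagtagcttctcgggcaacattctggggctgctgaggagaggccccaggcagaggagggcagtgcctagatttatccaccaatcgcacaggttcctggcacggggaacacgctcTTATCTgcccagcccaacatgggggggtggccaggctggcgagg
Apom promoter, chr17:35131752-35132051, minus strand: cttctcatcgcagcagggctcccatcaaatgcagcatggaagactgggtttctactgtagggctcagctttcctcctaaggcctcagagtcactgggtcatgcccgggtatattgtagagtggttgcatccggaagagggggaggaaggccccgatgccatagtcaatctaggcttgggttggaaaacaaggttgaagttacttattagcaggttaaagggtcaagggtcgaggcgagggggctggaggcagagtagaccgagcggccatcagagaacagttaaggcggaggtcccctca

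The site lies at position 14 from the start in Dab2, at -32 in Dpp4 and at 6 in Eml1, and it reads TTATCT on the printed strand in Dab2 and Eml1. A further Dab2 promoter and 4 other Eml1 promoters did not hold it. Nor did the RefSeq promoters of Ctsc, Tfec and Mttp, which were also higher in both. Of all 32851 promoters, 11.2% held AGATAA on either strand. Of 25 promoters matched to 17 of the 23 genes 6 did (24.0%), those of Dab2, Dpp4, Eml1, Lgals2, Plac1 and Slc7a9, a share given with no test. Of 14 promoters matched to 10 of the 15 highest embryoid genes 2 did (14.3%), which is close to that share. TGTTTAC (forkhead) and CAAAGTCCA (HNF4), searched on both strands, were in none of those 14, and in 3.65% and 0.475% of all promoters. The forkhead letters were in 2 of 15 promoters of the apolipoprotein list (13.3%), those of Apoa2 and Apoe, and in 1 of 8 promoters of the 15 genes highest in embryoid over blastocyst cells, that of Rbp4. A match is a string of letters and not a bound site, and no match says only that these letters are not in this window.

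Over the whole transcriptome, embryoid visceral-type cells were closer to blastocyst endoderm than to other blastocyst cells. With each profile thinned to 250000 UMIs and over 6843 genes, Spearman's correlation of embryoid visceral-type cells was 0.677 with blastocyst visceral-type cells, 0.654 with other blastocyst endoderm, 0.533 with trophectoderm-type and 0.503 with epiblast-type cells. It was 0.884 with other embryoid endoderm. Other embryoid endoderm gave 0.648 with blastocyst visceral-type cells and 0.629 with other blastocyst endoderm. Embryoid epiblast-type cells gave nearly the same, 0.637 with each of these, and 0.799 with blastocyst epiblast-type cells. A correlation of this height with blastocyst endoderm was therefore not particular to embryoid endoderm. The 2 blastocyst endoderm classes gave 0.891 with each other, and blastocyst visceral-type cells gave 0.687 with epiblast-type cells of their own library. These are correlations across genes, which are not independent replicates, and profiles of 1 library share its depth, handling and base composition.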

How the data were processed

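Per the labels' protocols, both libraries were made with the BD Rhapsody whole-transcriptome kit from polyadenylated RNA. Alignment used STAR 2.7.1a, listed with the mm10 build, featureCounts 1.6.4 (Subread), UMI-tools 1.0.1 and bcl2fastq 2.19.1.403 in the submitters' processing notes. For their settings, the annotation and any barcode filter, nothing is given in the sources used here. The deposited values are whole-number UMI counts per gene and barcode, 1 table per library, in which the authors had applied no normalization that the values show. If UMIs or multi-mapped reads were handled differently, genes with near-identical copies would be the first to move.

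From these counts, cells were chosen as described in the report, UMIs were summed per cell set and divided by the total to give CPM. Ratios are log2((CPM + 1)/(CPM + 1)), so a ratio of a low gene is drawn towards 0 and can lie outside its interval, which is an exact 95% interval of the raw counts. A gene without a UMI was given a bound against 3 UMIs in the summed profile. Shares carry exact Clopper-Pearson intervals. Intervals and bounds cover counting error only. With 1 library per group there is no test between conditions. Epiblast-type and trophectoderm-type cells, used as a background, were chosen by their own markers in the same libraries. Gene levels are not per length, so levels were not compared between genes. The members and the 35 lists (443 of 451 genes matched) were chosen with earlier results of these data known.

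Named genes are the 15 highest and 15 lowest per comparison by log2((CPM + 5)/(CPM + 5)) with at least 50 CPM in the higher profile, without the 15 rule genes and mitochondrial, ribosomal and predicted genes, the 4 with the largest ratio per list, list members whose role is described, and the 10 genes of the overlap with the highest smaller ratio and 5 each with the largest difference. Some list members and genes of the overlap were picked after their values were seen. The comparison was checked on simulated counts with counting error alone, in which genes of at least 50 CPM were changed by more than 2-fold. How well changes of 2-fold near 5 CPM are found was not checked. Scanpy 1.11.5 (Scrublet), pandas 2.3.3, scipy 1.17.1, matplotlib 3.10.9 and numpy 2.4.6 were run in Python 3.11.15. The alternatives covered thresholds, cell filters, doublets, depth, pseudocount, normalization and the filter on low values.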

Additional observations from a re-analysis of the deposited data

Results flagged for a closer look

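For 3 genes the ratio of visceral-type over other endoderm was at least 2-fold in opposite directions in the embryoid and the blastocyst library, beyond the counting error of each. They were picked from 8742 genes that reached 5 CPM in both comparisons. By fold alone, 6 of the 90 genes higher in the embryoid were lower in the blastocyst. Of the 101 lower in the embryoid 9 were higher in the blastocyst. Other genes, such as Cited1 (-0.80 in the embryoid and 2.31 in the blastocyst) and Krt18 (0.25 and -4.39), also had opposite signs, with a smaller difference in 1 library. Each library gives 1 value, so the difference between libraries was not tested. Id2, a BMP-responsive inhibitor of differentiation, had a log2 ratio of 1.49 in the embryoid (248 CPM in visceral-type and 87.3 CPM in other endoderm) and of -1.08 in the blastocyst (45.7 and 97.5 CPM). Rbpms2, an RNA-binding protein, had 1.11 in the embryoid (53.5 and 24.2 CPM) and -1.16 in the blastocyst (30.5 and 69.5 CPM). Egln3, an oxygen-sensing hydroxylase, had -1.22 in the embryoid (74.1 and 174 CPM) and 3.63 in the blastocyst, where it rests on 3 UMIs in visceral-type cells and none in other endoderm. None of the 3 kept its blastocyst direction beyond counting error without the Utf1 condition, where 78 visceral-type cells were compared. Id2 then had 74.4 CPM in visceral-type and 66.3 CPM in other blastocyst endoderm (log2 ratio 0.16, -0.26 to 0.58). Rbpms2 had 73.3 and 72.2 CPM (0.02, -0.40 to 0.43), and Egln3 had 5.39 and 2.38 CPM (0.92, -0.87 to 3.15).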

How the results depend on the processing

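Neither the number of lists with a median of at least 1 (13) nor of at most -1 (3), embryoid over blastocyst, moved by over 1.5 times under any alternative. Marker lists of other cells were not counted, and the 3 include X inactivation, in which Xist alone reached 5 CPM. None of the 30 highest and lowest genes of embryoid over blastocyst or of the embryoid comparison turned its sign (512 of 600 and 510 of 600 values moved by less than the counting interval). With the 78 blastocyst cells, Dab2 (0.29 to -0.36), Lrp2 (0.29 to -0.71), Tfec (1.19 to -1.49) and Amot (1.00 to -0.12) of the lists did. Counts of genes did depend on the processing, as calls by fold follow depth. Embryoid over blastocyst, 1977 higher genes became 923 at a mean of 25 CPM and 3959 without a filter, and 1316 lower genes became 621 and 2248, 757 with a pseudocount of 10, 2043 thinned after and 2053 thinned before selection, and 2067 without any UMI of the epiblast genes. Within the embryoid, 131 higher genes became 70 with a pseudocount of 10 and 74 at 25 CPM, and 187 lower genes became 64 and 77, and 346 without a filter. Within the blastocyst, 530 higher and 873 lower genes became 115 and 329 with a pseudocount of 10, 83 and 178 at 25 CPM, 1400 and 3959 without a filter, 806 and 1368 with at most 10% mitochondrial UMIs, 1504 and 1645 thinned after selection, 1516 and 1816 thinned before it, 1801 and 1887 without epiblast UMIs, and 188 and 382 without the Utf1 condition; without the Dppa1 and Tspan8 condition 1104 were higher. The 13 genes higher and 14 lower in both libraries became 6 and 5 with a pseudocount of 10, 2 and 3 at 25 CPM, 20 and 99 without a filter, 20 and 26 thinned after selection, 28 and 38 thinned before it, and 32 and 25 without the Dppa1 and Tspan8 condition. The 13 became 23 without the Utf1 condition, and the 14 became 22 at 10 UMIs of Spink3, Cubn and Amn, 23 with at most 10% mitochondrial UMIs and 26 without epiblast UMIs. The 1362 embryoid and 28 blastocyst visceral-type cells (33.3% and 17.9%) became 866 and 17 (21.2% and 10.9%) at 10 UMIs. Thinned before selection there were 605 embryoid cells (20.7%), and the blastocyst share was 8.42%. Blastocyst cells became 88 (56.4%) without the Spink3 condition, 14 with at most 10% mitochondrial UMIs, 9 without epiblast UMIs and 78 without the Utf1 condition, and their share 10.1% without the Dppa1 and Tspan8 condition. In the blastocyst comparison 9 of 600 named gene values turned: Suco to 0.26 without the Spink3 condition and 0.04 thinned before selection, AA467197 to 0.61 and Tmsb4x to 0.01 with at most 10% mitochondrial UMIs, Dazl to -2.88 among cells of 5000 to 15000 UMIs, Cldn6 to -1.41 without epiblast UMIs, and Uimc1 to -0.63, Esam to -0.69 and Cdk13 to 0.27 thinned before selection. The settings without Utf1 and with thinning before selection were chosen after seeing the data, and the cause of these moves was not tested. No paired analysis was possible because each group is 1 library. With 1 UMI worth 3.81 CPM, blastocyst levels under about 11.4 CPM rest on 3 UMIs or fewer.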
